A study of Mus musculus with 12 samples.

Results

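The genes described here encode the protein components of the cytosolic ribosome. They were chosen by symbol from the deposited tables of genes that the authors listed as lower or higher in tdTomato+ than in tdTomato- group 2 innate lymphoid cells (ILC2s), as symbols beginning with Rpl or Rps and a digit, or with Rplp, together with *Rpsa*. The kinase genes *Rps6ka1* and *Rps6ka3*, which share the prefix, were left out. Of the 3439 listed genes, 76 (2.21%) were chosen, 45 of the large subunit and 31 of the small subunit. All 76 were found in the table of 2906 lower genes and 0 in the table of 533 higher genes, where 84.5% of all listed genes were in the table of lower genes. The authors made that division, and the fold changes, p-values and false discovery rates behind it were not used.

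The cells were ILC2s of the lung, sorted from male TIGIT-Cre-ERT2:Rosa26-LSL-tdTomato mice that had received papain and tamoxifen until day 19, with 100 cells per library. In these mice the *Tigit* locus drives a Cre recombinase that tamoxifen activates, and a cell that has expressed TIGIT, an inhibitory receptor, then carries the red protein tdTomato for good. Papain is a protease given through the nose as an allergen, and both populations had the same genotype and both treatments, so tdTomato is what separated them. The labels list 4 RNA-seq libraries of each population, and the libraries that entered the averages are not given in the sources used here.

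The tables hold 1 level per gene, the authors' average log2 CPM (counts of a gene relative to all counts of a library) over the libraries of both populations, and the values of single libraries are not analysed here. The depth of each library is therefore unknown, and no SD, interval or test accompanies a level below. All levels are of genes that had passed the authors' limits on the false discovery rate and on the average log2 CPM, whose lowest listed value was 5.00. Genes are not replicates, so differences between genes are descriptions of these averages. All 10 ILC2 marker genes looked up, among them *Gata3*, *Il1rl1* and *Rora*, were listed. All were in the table of lower genes, which held 84.5% of all listed genes. Being listed is the authors' call of a difference between the populations and not a measure of which cells were present. Of the 6 T cell markers 1 was listed (*Cd3g*, average log2 CPM 6.12), and of the markers of natural killer cells (4 genes), B cells (3), myeloid cells (7), eosinophils (2) and epithelial cells (3) 0 were, although a gene that is not listed may have missed either limit.

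A ribosome consists of a small subunit, which reads the mRNA, and a large subunit, which joins amino acids and passes the growing chain through an exit tunnel. Each ribosomal protein is, with few exceptions, present in 1 copy per ribosome, so its genes have to be expressed in concert, and resting lymphocytes raise ribosome production when they are activated. In mammals the mRNAs of these proteins typically begin with a C and a run of pyrimidines, the terminal oligopyrimidine (TOP) motif, through which mTOR signalling and the protein LARP1 regulate their translation. Many of the genes also carry small nucleolar RNAs (snoRNAs), which guide the modification of ribosomal RNA, in their introns, and their abundant mRNAs have been copied back into the genome many times as processed pseudogenes.

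The start sequences show the feature that the symbols did not use. Each line gives 15 bases before the annotated start and 15 from it on, from RefSeq on GRCm38.p6, for the 4 genes per subunit with the highest level per kb among those with a C and at least 4 further pyrimidines exactly at the start, with the run from the start on in capitals. These genes were picked after their sequences had been seen.
*Rplp2*, chr7:141447636-141447665, plus strand: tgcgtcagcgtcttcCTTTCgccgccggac
*Rpl38*, chr11:114668565-114668594, plus strand: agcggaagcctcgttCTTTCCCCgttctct
*Rpl14*, chr9:120571502-120571531, plus strand: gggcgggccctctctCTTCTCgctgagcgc
*Rpl35*, chr2:39005117-39005146, minus strand: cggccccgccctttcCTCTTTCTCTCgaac
*Rps6*, chr4:86857353-86857382, minus strand: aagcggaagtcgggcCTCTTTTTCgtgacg
*Rps27*, chr3:90213634-90213663, minus strand: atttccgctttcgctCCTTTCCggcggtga
*Rps21*, chr2:180257364-180257393, plus strand: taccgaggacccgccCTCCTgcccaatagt
*Rps18*, chr17:33955651-33955680, minus strand: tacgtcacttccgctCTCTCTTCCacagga
Counted from the annotated start on, the capitals cover 5 to 11 bases in these 8 windows, and pyrimidines also precede them. For contrast, the gene of each subunit with the highest level per kb among those without such a run within 5 bases of the annotated start is shown, with no capitals.
*Rplp0*, chr5:115559452-115559481, plus strand: gtcttcgggtttcgaggaccgcctggttct
*Rps3a1*, chr3:86142654-86142683, minus strand: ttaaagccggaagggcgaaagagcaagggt
The start of an mRNA is often spread over several bases, and an annotated start that lies a few bases off hides a run, so no match says only that these letters are not at this place.

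The roster of cytosolic ribosomal proteins has 80 genes, 47 of the large and 33 of the small subunit, and 74 of them were among the 76 listed genes. *Fau* and *Rack1*, small subunit genes under other symbols, were listed as well. *Rpl13a*, *Rpl24* and *Rps10* were not listed, and the tables do not show which limit they missed. The remaining 2 of the 76 are outside the roster, namely *Rpl7l1*, a relative of *Rpl7*, and *Rps27rt*, a copy of *Rps27* with a single exon.

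The ribosomal protein genes had far higher average levels than most listed genes. Their average log2 CPM ran from 5.12 (*Rps27rt*) to 10.87 (*Rpsa*) with a median of 8.59, whereas the median of the 3363 other listed genes was 6.20. Summed, they made up 36226 CPM, which was 6.90% of the sum over all listed genes and 3.62% of all counts on this scale. The highest other listed gene, in the table of higher genes, alone had 92259 CPM. The large subunit contributed 21920 CPM and the small subunit 14306 CPM. Of the 100 listed genes with the highest average CPM, 28 were ribosomal protein genes, 17 of the large and 11 of the small subunit, and of the highest 200 they were 50. Between them, 74 of 76 exceeded an average log2 CPM of 7, the exceptions being *Rpl7l1* (5.35) and *Rps27rt*, and 57 exceeded 8. Above 10 were only *Rpsa*, *Rplp1* (10.50), *Rplp0* (10.31) and *Rps23* (10.06). The 5 highest genes held 18.3% of the sum over all 76.

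To compare genes with each other, the average CPM was divided by the total exonic length in kb. On this scale the median of the 76 genes was 221 CPM per kb (11.6 to 2902), that of the other listed genes was 13.5 (quartiles 9.03 and 21.8) and that of the other genes in the table of lower genes was 15.2. All but *Rpl7l1* lay above the upper quartile of the other listed genes. The large and small subunit genes had nearly the same median, 220 CPM per kb (quartiles 146 and 324) and 223 CPM per kb (quartiles 130 and 315). The log2 difference of the medians, large minus small, was -0.02, against an interquartile range of log2 levels of 1.15 among large and 1.28 among small subunit genes. The sign of this difference depended on the length used. It was -0.36 with the length of the principal transcript and 0.05 with the coding length, so no order of the subunits can be read from these averages.

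**Figure D1:**
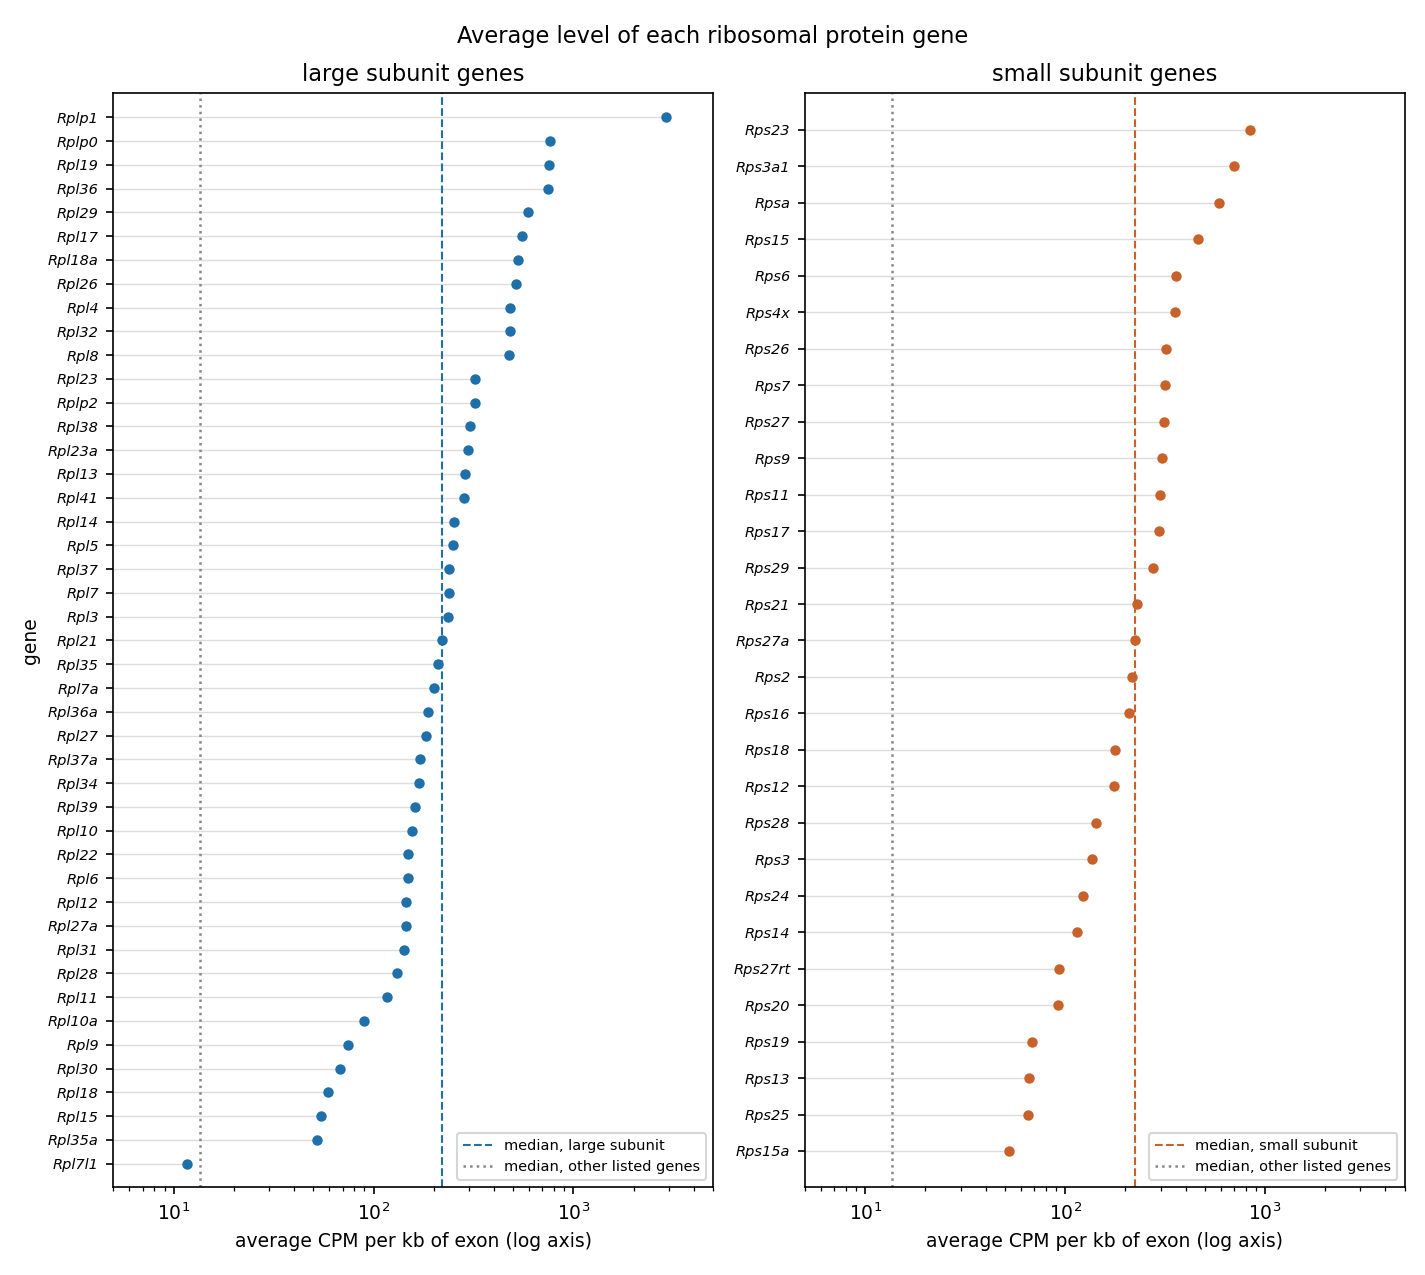
The plot gives the authors' average CPM per kb of exon (log axis) for the 45 large and 29 of the 31 small subunit genes, ordered by level, with 2 small subunit genes not reported by name here left out of the plot. Dashed lines mark the median over all listed genes of each subunit (220 and 223) and the dotted line the median of the other listed genes (13.5), below which only *Rpl7l1* falls.

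**Figure D2:**
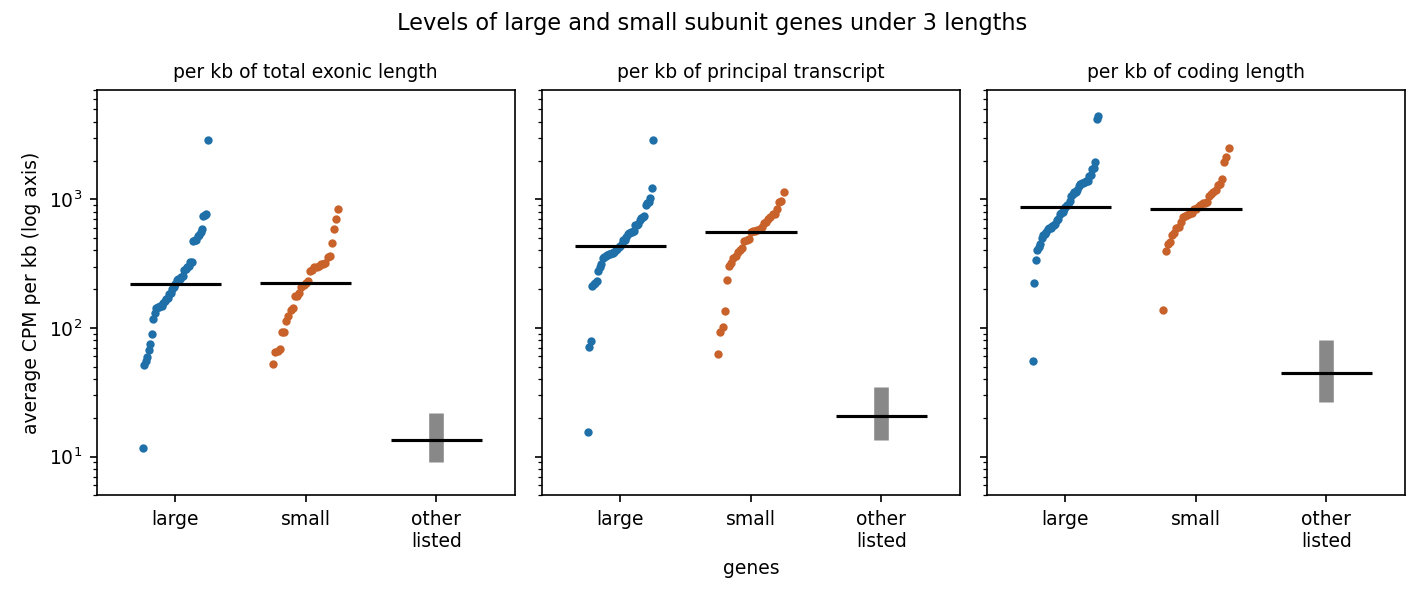
Each dot is a ribosomal protein gene, with its average CPM per kb (log axis) under total exonic length, principal transcript length and coding length. Black lines are medians and grey bars the quartiles of the other listed genes, and the large and small subunit medians change order between panels (220 and 223, 432 and 556, 874 and 842).

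The stalk of the large subunit recruits the translation factors that use GTP, and *Rplp1* and *Rplp0* of the stalk had the highest levels per kb of exon among large subunit genes. *Rplp1* had 2902 CPM per kb of exon, 3.79 times the level of *Rplp0* at 766. *Rplp0* encodes the base to which the stalk proteins bind as dimers. *Rplp2*, the partner of *Rplp1*, had 323 CPM per kb. The ratio of *Rplp1* to *Rplp0* was little affected by the length (3.10 with the principal transcript and 3.17 with the coding length), but that of *Rplp2* to *Rplp0* was 0.42, 0.74 and 1.45 with the 3 lengths and so changed side. After *Rplp0* came *Rpl19* (754 CPM per kb), *Rpl36* (747) and *Rpl29* (589). *Rplp1* was among the 5 highest large subunit genes with each length. *Rpl41*, which encodes the shortest of these proteins with a coding length of 75 bases, had 282 CPM per kb of exon but the highest level of the large subunit with the coding length, 4396.

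The lowest large subunit genes were *Rpl7l1* (11.6 CPM per kb of exon), *Rpl35a* (51.9), *Rpl15* (54.8), *Rpl18* (59.0) and *Rpl30* (67.9). *Rpl7l1*, *Rpl15* and *Rpl18* were among the 5 lowest with every length. *Rpl35a* and *Rpl30* were so with the exonic length alone, and *Rpl35a* had 353 CPM per kb of principal transcript. The exons annotated for *Rpl35a* cover 3526 bases, and its principal transcript 519. The low position of *Rpl35a* thus rested on the exonic length.

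Among small subunit genes, *Rps23*, whose protein lies at the decoding site, was highest with 840 CPM per kb of exon. It was followed by *Rps3a1* (700), *Rpsa* (590), *Rps15* (460) and *Rps6* (359), which encodes the ribosomal protein phosphorylated by S6 kinase. *Rpsa* also serves as a laminin receptor precursor and had the highest average log2 CPM of all 76 genes. *Rps23* and *Rpsa* were among the 5 highest of the small subunit with all 3 lengths. The lowest were *Rps15a* (52.1), *Rps25* (65.0), *Rps13* (66.3), *Rps19* (68.6), a gene mutated in Diamond-Blackfan anaemia, and *Rps20* (92.3). Of these, only *Rps25* was among the 5 lowest with every length. *Rps15a* had 838 CPM per kb of coding length, where the median of the small subunit was 842. Across all 76 genes, the order by exonic length had a Spearman's rho of 0.82 with the order by principal transcript and of 0.59 with the order by coding length, all 3 orders sharing the same average CPM.

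Grouped by place in the ribosome, genes of the same site differed in average level per kb of exon. The highest was from 1.27 times (beak) to 19.9 times (stalk) the lowest. The 4 stalk genes ranged from 146 (*Rpl12*) to 2902 CPM per kb of exon. The 3 genes whose proteins line the exit tunnel ranged from 161 (*Rpl39*) to 553 (*Rpl17*), and the 5 at its rim, where the signal recognition particle and chaperones dock, from 142 (*Rpl31*) to 754 (*Rpl19*). The neighbours of the peptidyl transferase centre, *Rpl3*, *Rpl8* and *Rpl10*, ranged from 157 to 476. *Rpl5* and *Rpl11* bind the 5S ribosomal RNA together, and a surplus of both inhibits Mdm2. *Rpl5* had 2.13 times the level of *Rpl11* per kb of exon and 1.26 times that per kb of principal transcript. In the small subunit, the genes at the mRNA entry ranged from 137 (*Rps3*) to 304 (*Rps9*), those at the mRNA exit from 114 (*Rps14*) to 320 (*Rps26*), and *Rps15* and *Rps23* at the decoding site had 460 and 840. Of the 3 beak genes *Rps12* (176) and *Rps27a* (223) were listed. Spread and order within a site depended on the length. With the principal transcript, the 3 tunnel genes ranged from 377 (*Rpl39*) to 631 (*Rpl4*), and *Rps12* (610) was above *Rps27a* (556). With the coding length, *Rpl39* (1509) was above *Rpl17* (1329).

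The X chromosome held 4 of the 76 genes. *Rps4x* had 353 CPM per kb of exon, above the median of the small subunit, whereas *Rpl36a* (188), *Rpl39* (161) and *Rpl10* (157) lay below that of the large subunit. Only *Rpl10* kept its side with all 3 lengths. With the coding length, *Rps4x* (730) lay below its subunit median of 842. *Rpl36a* (976) and *Rpl39* (1509) then lay above theirs of 874. With the principal transcript, *Rpl36a* (643) lay above the median of 432. The genes were spread over 19 chromosomes, with 13 (17.1%) on chromosome 7, where 6.93% of the other listed genes lie. On chromosome 7 were 9 small and 4 large subunit genes.

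The ribosomal protein genes were short. Their median exonic length was 1776 bases and that of the other listed genes 5897, and 55.3% had an exonic length under 2000 bases compared with 6.55%. The median coding length was 453 bases against 1677, the number of exons 5 against 12 and the genomic span 3266 bases against 35304. SnoRNAs lay within 29 of the 76 genes (38.2%), 19 of the large and 10 of the small subunit, and within 2.26% of the other listed genes. The 29 genes held 54 snoRNAs between them, 5 of them in *Rpl4*. Longer coding sequences went with higher average log2 CPM among the 76 genes (Pearson's r 0.41, Spearman's rho 0.46, across genes). Within the small subunit r and rho were 0.61 and 0.56 and within the large subunit 0.29 and 0.37, with all values from the same libraries, and the difference between the subunits was not tested. These levels were not divided by length. Per kb of exon, r and rho with coding length were 0.07 and 0.15 among the 76 genes. They were 0.31 and 0.37 within the small subunit and -0.03 and 0.01 within the large subunit.

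Copies elsewhere in the genome bear on how reads of these genes can be counted. Every stretch of 100 bases of the principal transcript was looked up in the rest of GRCm38 for the 76 genes, and every 10th for the other listed genes. In 73 of the 76 genes (96.1%) at least 1 of these windows was found elsewhere, against 22.7% of the other listed genes. The coarser step can only lower the second share. The median share of windows found elsewhere was 40.5% for the 76 genes and 0 for the other listed genes. More than 50% of windows had a copy in 29 of the 76 genes (38.2%) and in 2.02% of the others. In *Rpl22* and *Rps3* the share was 0, and the highest was 99.6%, in *Rps27*. Of the 246 windows of *Rps27*, 242 occur in *Rps27rt*, so reads of this pair cannot be told apart over most of the transcript and the values of both (313 and 93.0 CPM per kb of exon) are uncertain. *Rpl7* (238 CPM per kb of exon) and *Rpl7l1* share no such windows, and *Rpl7* had 20.4 times the level of *Rpl7l1*. This ratio was 35.2 with the principal transcript and 14.3 with the coding length. Across the 76 genes, the share of windows found elsewhere had a Pearson's r of -0.09 and a Spearman's rho of -0.10 with the average log2 CPM, as a description. How the authors' counting treated reads with several matches is not given in the sources used here.

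**Figure D3:**
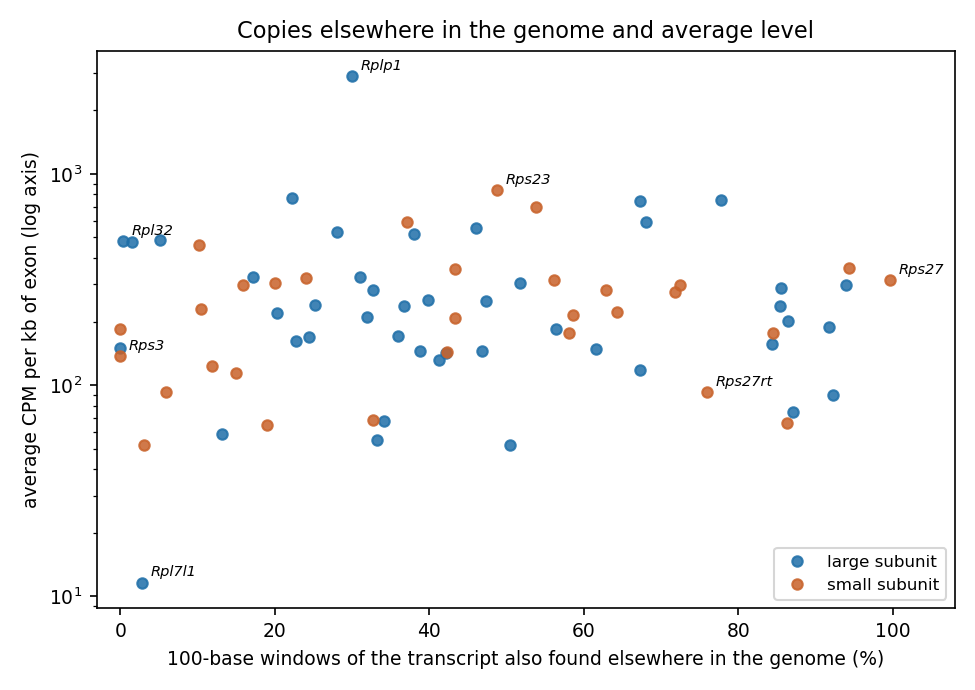
For each of the 76 genes, the share of 100-base windows of its principal transcript found elsewhere in the genome is plotted against its average CPM per kb of exon (log axis), coloured by subunit. *Rps3* lies at 0, *Rplp1*, the gene with the highest level, at 30% and *Rps27* at 99.6%.

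The RefSeq table of promoters held starts of 56 of the 76 genes, of 2674 other listed genes and of 27018 genes in all. A C followed by at least 4 pyrimidines began exactly at an annotated start in 13 of the 56 genes (23.2%), in 2.99% of the other listed genes and in 3.01% of all genes. Those 13 were *Rpl14*, *Rpl15*, *Rpl28*, *Rpl35*, *Rpl35a*, *Rpl38*, *Rplp2*, *Rps15a*, *Rps18*, *Rps21*, *Rps27*, *Rps27rt* and *Rps6*. Within 5 bases either side of a start, such a run was found in 26 of the 56 (46.4%), in 24.7% of the other listed genes and in 21.2% of all genes. It was found in 15 of 33 large (45.5%) and 11 of 23 small subunit genes (47.8%). With the starts of GENCODE transcripts, which cover all 76 genes, the share was 55.3% against 39.9% of the other listed genes. It was 48.9% of the large and 64.5% of the small subunit genes. Both the source of the starts and the set of genes changed here, so the wider gap between the subunits cannot be assigned to either. The wider the distance allowed, the more runs were found in every set, and within 10 bases the shares were 58.9%, 38.7% and 34.4%. With at least 6 pyrimidines after the C within 5 bases, they were 35.7%, 9.84% and 7.64%. No test was made of these shares.

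The 300 bases around each start, 250 before and 50 after it, were also searched on both strands for 4 other strings of letters. CCGGAAG, which ETS family factors such as GABPA bind, was found in 23 of the 56 genes (41.1%), in 18.1% of the other listed genes and in 9.93% of all genes. AAGATGG, the core letters bound by YY1, was found in 9 (16.1%), in 8.79% and in 7.28%. The E-box CACGTG, which MYC and its partner MAX can bind, was found in 5 (8.93%), in 11.3% and in 8.09%. TATAAA was found in 6 (10.7%), in 10.3% and in 15.7%. CCGGAAG and AAGATGG can overlap in the letters AAG, and a match is a run of letters and not a bound site. CCGGAAG is shown in capitals, or as its reverse complement CTTCCGG, in the 2 genes per subunit with the highest level per kb that have it within 15 bases of the start.
*Rpl26*, chr11:68901551-68901580, plus strand: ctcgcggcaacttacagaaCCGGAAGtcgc
*Rpl34*, chr3:130730323-130730352, minus strand: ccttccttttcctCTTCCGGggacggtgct
*Rps3a1*, chr3:86142654-86142683, minus strand: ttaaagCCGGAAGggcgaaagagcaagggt
*Rps7*, chr12:28635939-28635968, minus strand: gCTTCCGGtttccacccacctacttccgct
*Rps3a1*, which has no pyrimidine run near its annotated start, thus has these letters just upstream of it.

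**Figure D4:**
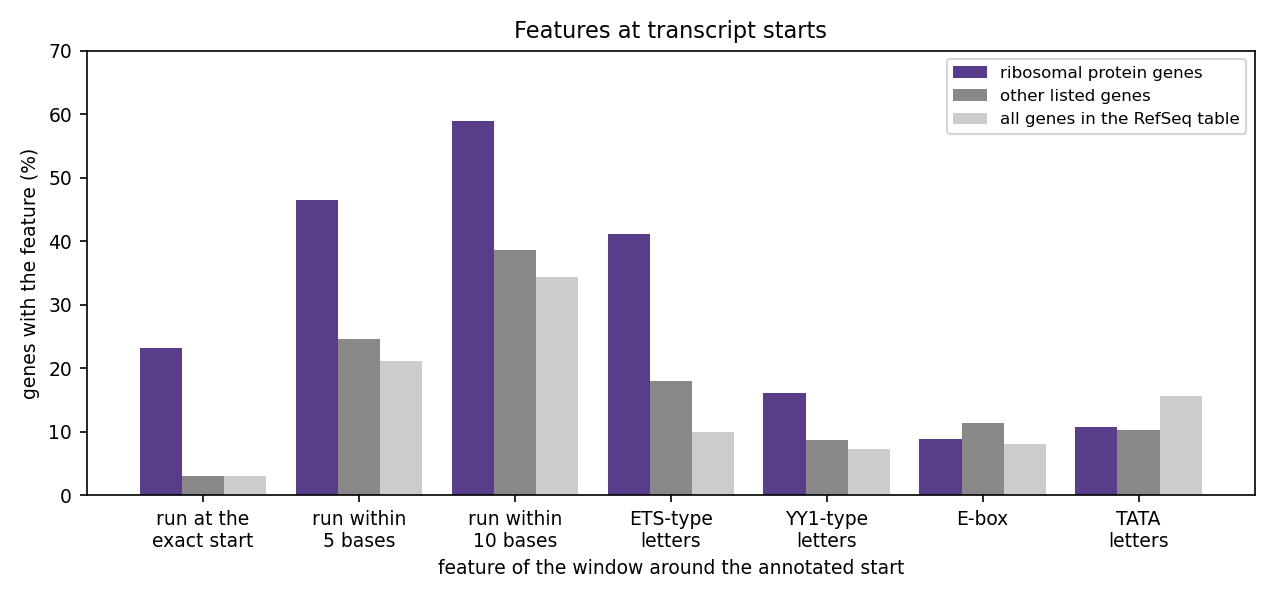
Bars give the share of genes (%) with a C and at least 4 pyrimidines at or near the annotated start, and with the ETS-type, YY1-type, E-box or TATA letters given above within the 300 bases around it, for 56 ribosomal protein genes, 2674 other listed genes and 27018 genes of the RefSeq table. The ribosomal protein genes have the tallest bar at the exact start (23.2% against 2.99% and 3.01%), within 5 bases (46.4% against 24.7% and 21.2%) and for CCGGAAG (41.1% against 18.1% and 9.93%).

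Other genes of protein synthesis were looked up in 6 lists, and most of these genes were not listed. None was in the table of higher genes, and all 6 elongation factor genes were in the table of lower genes. That table held 84.5% of all listed genes, so these counts alone do not set the lists apart. *Eef1a1*, which brings aminoacyl-tRNA to the ribosome, had 1459 CPM per kb of exon, second to *Rplp1* alone if set among the ribosomal protein genes. *Eef2*, which moves the ribosome along the mRNA, had 509. *Eef1b2* (157), *Eef1g* (95.1) and *Eef1d* (17.3), the exchange factor subunits, and *Eif5a* (63.7) lay lower. *Fau* (341) and *Rack1* (120) were within the range of the small subunit genes.

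The genes that build ribosomes were mostly not listed, which also holds for genes in general. For comparison, the 27018 genes of the RefSeq promoter table included 56 of the ribosomal protein genes and 2674 other listed genes. Of 24 nucleolar assembly factor genes 9 were in the table of lower genes, with a median of 15.2 CPM per kb of exon, led by *Npm1* (150), *Ncl* (72.8) and *Nop53* (63.1). Of 8 RNA polymerase I genes, *Ubtf* and *Polr1d* were listed, and of 8 regulators of ribosomal protein mRNA translation, *Larp1* and *Eif4ebp2*. Mitochondrial ribosomal proteins have separate genes, of which 1 of 78 was listed (*Mrpl32*, 6.82 CPM per kb of exon). A gene of low average level had to pass the limit on the average log2 CPM, so these counts mix level and difference between the populations, which cannot be told apart for a gene that is not listed.

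**Figure D5:**
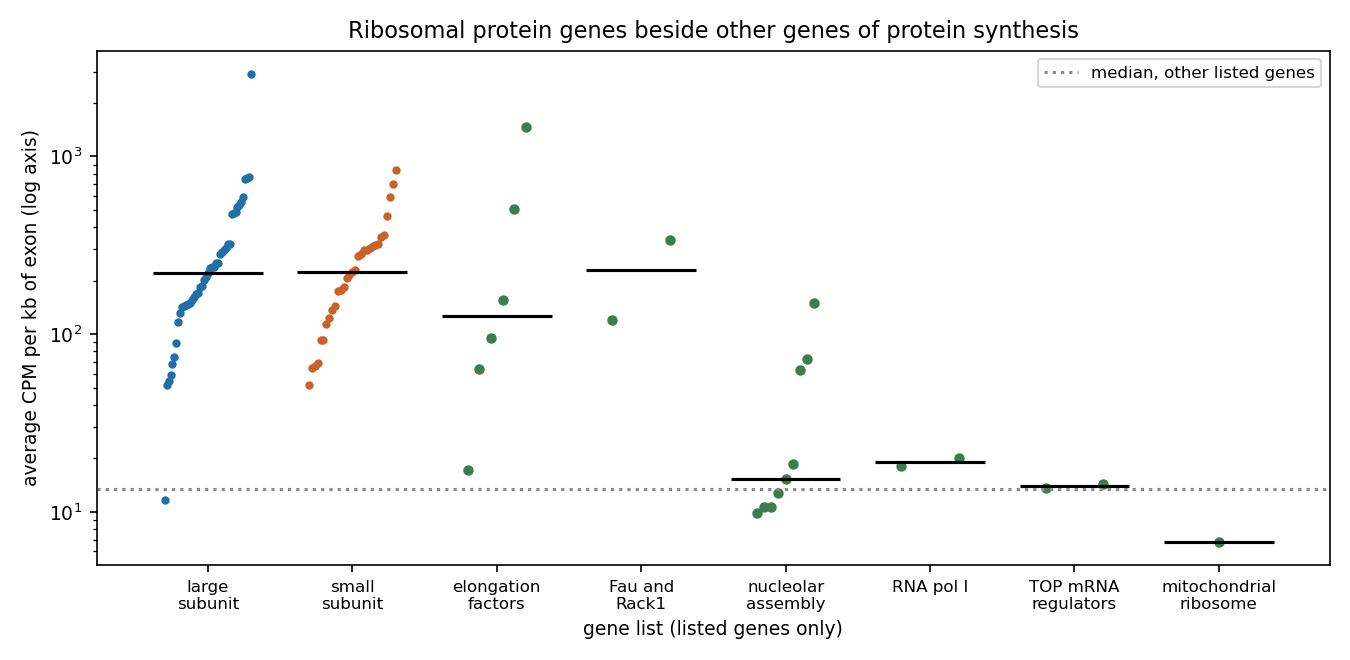
Dots are the listed genes of each list at their average CPM per kb of exon (log axis), with black lines at the medians and a dotted line at the median of the other listed genes (13.5). Elongation factors, *Fau* and *Rack1* overlap with the ribosomal protein genes, and 6 of the 9 assembly factor genes lie near the dotted line.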

How the data were processed

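RNA was sequenced from tdTomato- and tdTomato+ lung ILC2s, 4 libraries of each by the labels. The authors checked reads by FASTP, mapped them by STAR (GRCm39), made counts per gene by featureCounts (annotation of Ensembl release 104) and fitted edgeR, and their deposited log2 values are average log2 CPM over libraries. The submitters' processing notes name mm10 and no tool versions. The 4 columns of the authors' comparison (log2 fold change, likelihood ratio, p-value and FDR) were not used, and 0 columns hold values of single libraries. Per-sample depth is thus unknown, and ATAC-seq libraries are not analysed here.

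Average CPM was divided by the exonic length of GENCODE M21 (GRCm38), in which 3437 of 3439 listed genes were found by identifier. Alternatives were other lengths and gene sets. Windows were 100 bases, taken at every base in the ribosomal protein genes and at every 10th in the other genes, and the search was tested on simulated data. Starts were RefSeq's on GRCm38.p6. Planned protein composition and protein identity were not computed, since no protein table was used here, and coding length came from GENCODE. Named genes were the 5 highest and lowest per kb of each subunit, stalk genes, X-linked genes, relatives outside the roster, roster genes not listed and the listed genes of the first 2 gene lists; others illustrate a place in the ribosome, a list or a sequence. Some genes are counted but not reported here by name. Genes and lists were chosen with earlier results of these data known. Python 3.11.15, numpy 2.4.6, pandas 2.3.3, scipy 1.17.1 and matplotlib 3.10.9 were used.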

Additional observations from a re-analysis of the deposited data

How the results depend on the processing

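No paired analysis was possible because no value of a single library is in the tables, and for the same reason no replicate could be left out and library depth sets no stated limit. Medians are given as CPM per kb for large, small and other listed genes in this order, followed by the log2 difference large minus small and the interquartile ranges of log2 levels (large, small). Principal transcript length, chosen after seeing the data, gave 432, 556 and 20.8, a difference of -0.36, and ranges of 0.85 and 0.95. Coding length gave 874, 842 and 44.2, a difference of 0.053, and ranges of 1.16 and 0.82. Undivided CPM gave 402, 377 and 73.6, a difference of 0.094, and ranges of 1.47 and 1.09. Roster genes alone gave 228 and 227, a difference of 0.0096, and ranges of 1.27 and 1.19, as did genes with an average log2 CPM above 7, which are the same 74 genes, where the other genes had 25.5. Genes with under 50% of windows elsewhere (29 large, 18 small; also chosen after seeing the data) gave 238 and 197, a difference of 0.28, and ranges of 1.71 and 1.44. The sign of the difference thus reversed in 5 of 6 alternatives, and the medians moved with the division by construction. The share with a pyrimidine run was 23.2% at the exact start, and 58.9%, 35.7%, 44.6% and 55.3% within 10 bases, with at least 6 pyrimidines, with the first start alone and with GENCODE starts, the last 2 chosen after seeing the data, where 38.7%, 9.84%, 20.8% and 39.9% of the other listed genes had one.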
